A study of Gossypium hirsutum with 24 samples.

Results

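Phenylalanine ammonia-lyase (PAL) was followed in cotton leaves fed upon by larvae of the cotton bollworm (CBW), Helicoverpa armigera, through the 4 probe sets that the study places under salicylic acid biosynthesis and matches to 2 genes of Gossypium raimondii, a diploid cotton species. Of these, 1 was matched to Gorai.009G416300.1 and 3 to Gorai.002G248000.1. The 3 are called the bright, the middle and the dim probe set here, by their mean intensity, and the array identifiers of all 4 label the panels of the plot of intensities by array. They are 4 of the 23972 probe sets of the value table. The name PAL comes from the study's text, and the platform annotation gives a symbol to 0 of the 4. The study listed them because their CBW to control ratios on these same arrays passed its threshold: the probe set of Gorai.009G416300.1 by the ratio at 6 h, and those of Gorai.002G248000.1 by the ratio at 48 h. Differences between CBW-damaged and control leaves are therefore given as a description, without a test.

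PAL removes ammonia from phenylalanine to form cinnamic acid. This is the entry into the phenylpropanoid pathway, which leads to lignin, to flavonoids, anthocyanins and condensed tannins, and by one of its routes to salicylic acid. Plants usually hold PAL as a small gene family whose members differ in tissue and in response to wounding, pathogens and light. Upland cotton is a tetraploid, so that each gene of a diploid relative usually has a copy in both subgenomes. The suffix s_at marks probe sets whose probes match several transcripts, and the 3 probe sets of Gorai.002G248000.1 carry it. Their values may therefore sum copies or relatives of the gene, and they are not 3 independent measurements of it.

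All plants were Gossypium hirsutum cv. CCRI12, an upland cotton, with 6 to 7 fully expanded true leaves at 5 to 6 weeks after sowing. CBW-damaged plants carried larvae in the third instar continuously for 6, 12, 24 or 48 h, and control plants were undamaged plants enclosed in the same way and harvested at the same times. Each array stands for the leaves of 3 plants, and there were 3 arrays for each of the 8 combinations of treatment and time, or 24 in all. The sample labels give 7 larvae per group of plants, and the methods give another number. Plants grew under 16 h of light and 8 h of dark. Time after onset, time in the bag and hour of the day cannot be told apart in either treatment. The exception would be 24 against 48 h, which share the hour of the day if feeding always began at the same hour. That hour is not given in the methods. In whole leaves, fewer cells that express a gene and less RNA per cell cannot be told apart.

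The values are signal intensities of the Affymetrix Cotton GeneChip on a linear scale, with array medians between 358 and 399. Log2 intensities of replicate arrays correlated at 0.931 to 0.995 across the 13341 probe sets with values on all arrays. Of the leaf markers looked for, 1 was found by name, a chlorophyll a/b-binding protein of the photosynthetic antenna. Its intensity was 408 to 683 in CBW-damaged leaves over the 4 times and 78.3 to 900 in control leaves, where the arrays of 24 and 48 h were the lowest. Markers could be named only among probe sets with a study ratio at 48 h, from the largest ratio down, which favours rises with feeding. The study reports lower expression with feeding for nearly all of its differentially expressed photosynthesis genes, so this marker may not stand for leaf content. The part of this marker in the differences of PAL was not tested. Probe sets bind with unequal strength, and no intensity of one is set against that of another below.

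The probe set of Gorai.009G416300.1 had higher intensities with feeding at 6 and 24 h on every array, and the arrays of the treatments overlapped at 12 and 48 h. At 6 h its intensity was 532, 585 and 699 on the arrays of CBW-damaged leaves, against 76.2, 64.6 and 101 on those of control leaves. The difference was 2.93 on the log2 scale (standard error 0.440), or 7.60-fold. No array of control leaves came near the CBW arrays at this time, which was the time of the study's ratio.

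At 12 h the same probe set had 997, 875 and 806 in CBW-damaged leaves, against 1082, 331 and 501 in control leaves. The highest and the lowest of these 6 arrays were both control arrays. The log2 difference was 0.66 (standard error 0.440), and it was 1.13 without control replicate 1 and 0.27 without control replicate 2. At 12 h both treatments had their highest group mean for this probe set.

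At 24 h it had 596, 321 and 325 in CBW-damaged leaves, against 83.4, 102 and 174 in control leaves. The groups were apart, with a log2 difference of 1.80 (standard error 0.440), or 3.48-fold. At 48 h it had 251, 247 and 237 in CBW-damaged leaves, against 278, 66.35 and 200.3 in control leaves. The CBW arrays lay within the range of the control arrays, and the log2 difference of 0.66 (standard error 0.440) was 0.05 without control replicate 2.

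The bright probe set of Gorai.002G248000.1 was higher with feeding at 6 h and lower at 48 h. At 6 h its intensity was 2946, 3201 and 3165 in CBW-damaged leaves, against 1536, 113 and 278 in control leaves. The CBW arrays were close together, while the control arrays spanned 13.6-fold, with replicate 1 far above the other two. The log2 difference was 3.09 (standard error 0.846), or 8.52-fold, and it was 4.13 without control replicate 1 and 2.25 without control replicate 2.

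At 48 h the bright probe set had 510, 182 and 336 in CBW-damaged leaves, against 2874, 1891 and 1926 in control leaves. Every CBW array was below every control array, and the log2 difference was -2.80 (standard error 0.846), that is 6.96-fold lower in CBW-damaged leaves. Control leaves at 48 h were among the higher groups for this probe set, and CBW-damaged leaves at 48 h were the lowest of the 8.

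Between these times the arrays of the bright probe set overlapped. At 12 h it had 689.8, 4464 and 3753 in CBW-damaged leaves, against 785, 1073 and 1691 in control leaves, and CBW replicate 1 was the lowest of the 6. At 24 h it had 3919, 949 and 1061 in CBW-damaged leaves, against 663, 468 and 2680.3 in control leaves, and 1 array of each treatment was high. The log2 difference was 1.01 at 12 h and 0.75 at 24 h (standard error 0.846 for both). With single arrays left out it was 0.52 (without CBW replicate 2) to 1.86 (without CBW replicate 1) at 12 h, and 0.09 (without CBW replicate 1) to 1.5 (without control replicate 3) at 24 h.

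The middle probe set of Gorai.002G248000.1 had the same direction at both ends of the time course. It had 407, 477 and 386 in CBW-damaged leaves at 6 h, against 186, 30.5 and 48.1 in control leaves, a log2 difference of 2.70 (standard error 0.710). At 48 h it had 86.7, 50.0 and 72.9 in CBW-damaged leaves, against 437, 264 and 292 in control leaves, a log2 difference of -2.25 (standard error 0.710). Neither pair of groups overlapped.

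At 12 h the middle probe set had 124, 625 and 449.7 in CBW-damaged leaves, against 111, 144 and 247 in control leaves. At 24 h it had 562, 129.8 and 138 in CBW-damaged leaves, against 106, 78.4 and 392 in control leaves. The groups overlapped at both times, with log2 differences of 1.05 and 0.54 (standard error 0.710), and the difference at 24 h was -0.15 without CBW replicate 1 and 1.25 without control replicate 3. The arrays that stood apart were those named for the bright probe set: CBW replicate 1 at 12 h and at 24 h, and control replicate 3 at 24 h.

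The dim probe set of Gorai.002G248000.1 had values at 6 and 48 h and none at 12 and 24 h. At 6 h its intensity was 81.25, 103 and 124 in CBW-damaged leaves, against 26.2, 3.72 and 8.82 in control leaves. At 48 h it was 7.77, 4.55 and 6.71 in CBW-damaged leaves, against 63.8, 50.5 and 61.4 in control leaves. The log2 differences of 3.42 and -3.23 (standard error 0.541 for both) had the signs of the other probe sets of the gene.

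Its intensity exceeded that of at most 23.4% of the probe sets with values on any CBW array at 6 h, and on the CBW arrays at 48 h it was at or near the bottom. With intensities below the 20th percentile of an array raised to that percentile, both log2 differences were 0.00, so that their size rests on the dimmest part of the scale. The same floor took the 6 h difference of the middle probe set to 1.65. Detection calls were not used here.

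**Figure D1:**
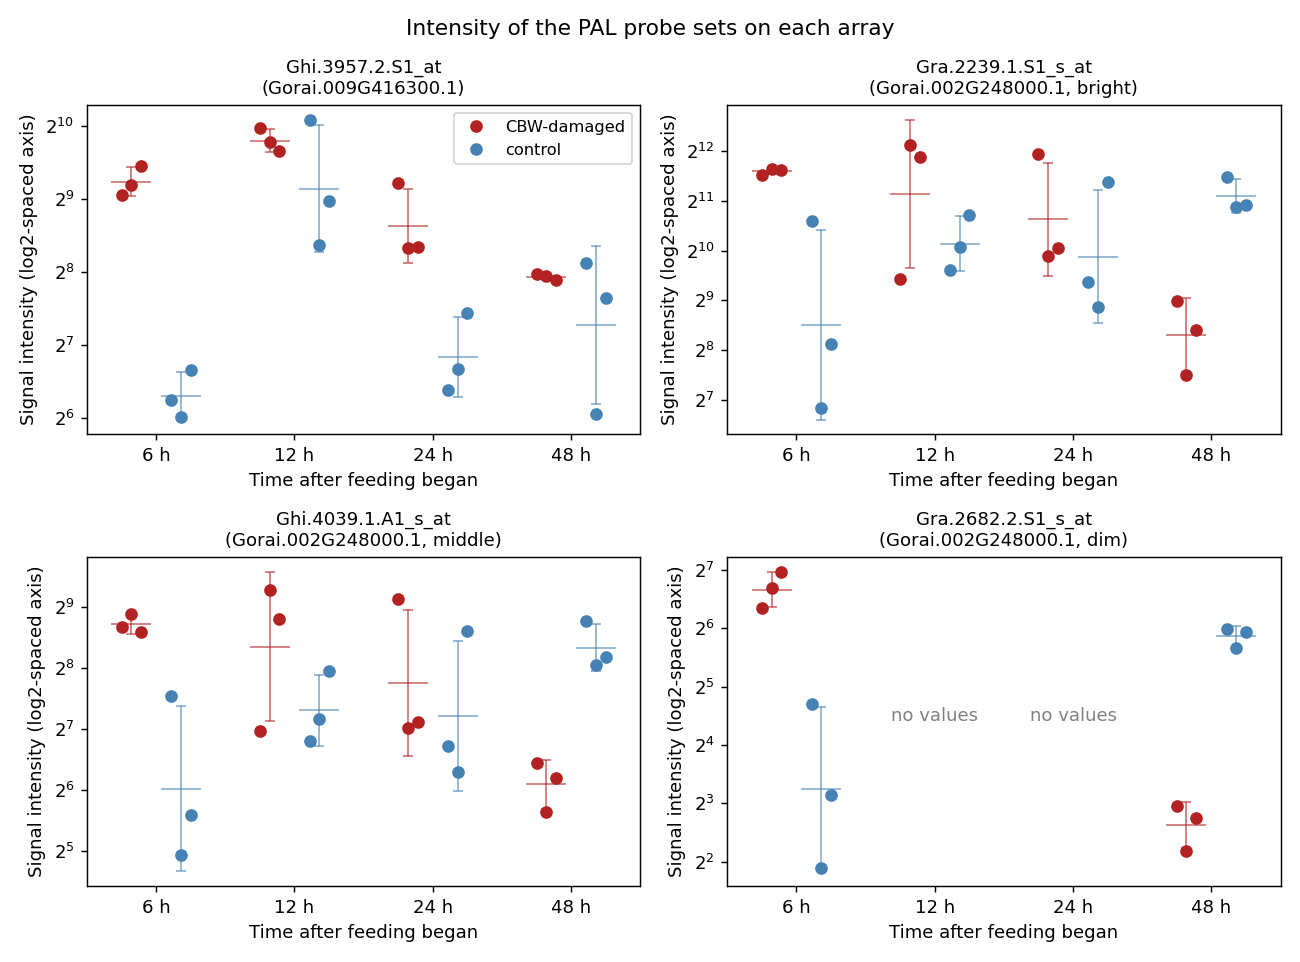
Signal intensity of the 4 PAL probe sets on every array (log2-spaced axis), with CBW-damaged leaves in red left of control leaves in blue at 6, 12, 24 and 48 h; bars give the mean ± 1 SD of log2 intensity (n = 3 arrays) and points run from replicate 1 to 3. The probe sets of Gorai.002G248000.1 have CBW arrays above control arrays at 6 h and below them at 48 h, while that of Gorai.009G416300.1 has CBW arrays above control arrays at 6 and 24 h.

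At 6 h, 4 of 4 members had every CBW array above every control array, a state shared by 28.0% of the 14627 probe sets with values at that time. At 12 h none of 3 did, with 23.5% of all probe sets above and 28.6% below. At 24 h 1 of 3 had every CBW array above, beside 23.6% of all probe sets, and at 48 h 3 of 4 had every CBW array below, beside 31.3%. The ratios at 6 and 48 h chose the members, so these counts are a description.

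The feeding differences of the 2 genes lay close together at 6 h and apart at 48 h. The ratio at 48 h chose the probe sets of Gorai.002G248000.1 and that at 6 h the probe set of Gorai.009G416300.1. Their contrast at these times is therefore a description and was not tested. Over the 3 probe sets of Gorai.002G248000.1 the log2 feeding difference ran between 2.70 and 3.42 at 6 h, with Gorai.009G416300.1 at 2.93 inside this range. At 48 h it ran between -3.23 and -2.25, with Gorai.009G416300.1 at 0.66. The log2 feeding difference of Gorai.009G416300.1 minus that of the bright probe set of Gorai.002G248000.1, taken within arrays, was -0.16, -0.35, 1.05 and 3.46 for 6, 12, 24 and 48 h, with standard errors of 1.09, 1.19, 0.622 and 0.663.

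Against the middle probe set it was 0.23, -0.39, 1.25 and 2.91, with standard errors of 0.806, 1.07, 0.598 and 0.521. The within-array differences of the CBW arrays lay above those of the control arrays at 48 h for all 3 probe sets of Gorai.002G248000.1, which are not independent. They overlapped at 6, 12 and 24 h where both genes had values. The wide errors at 6 and 12 h leave room for differences between the genes of several-fold in either direction at those times.

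**Figure D2:**
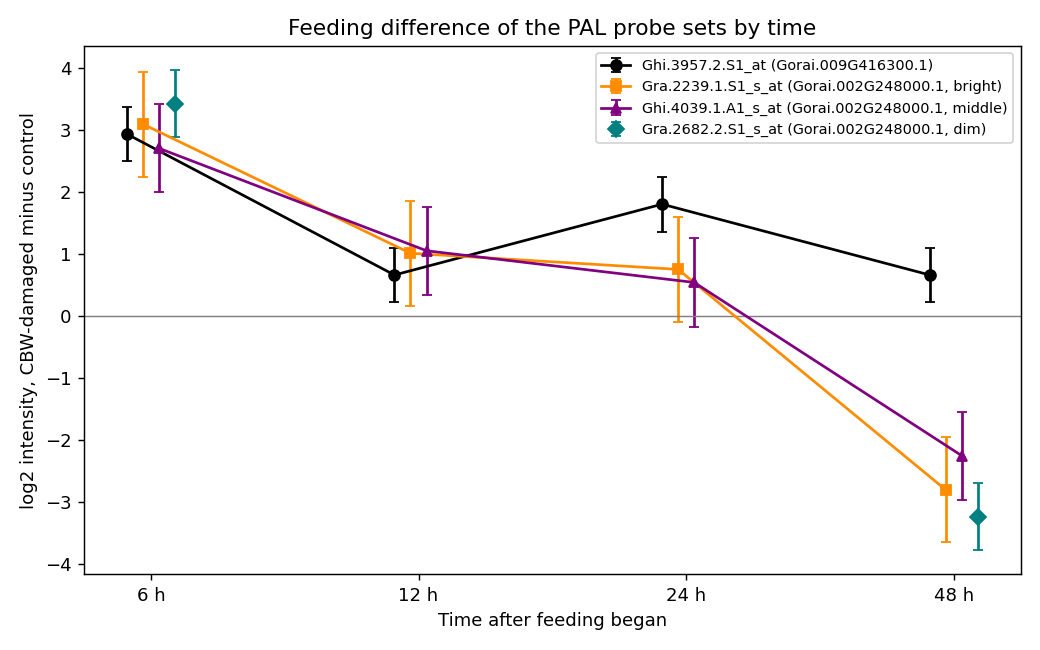
Difference in log2 intensity between CBW-damaged and control leaves at 6, 12, 24 and 48 h for the 4 PAL probe sets; bars are ± 1 standard error from the linear model over all arrays (n = 3 arrays per treatment and time). All 4 lie between 2.70 and 3.42 at 6 h, and at 48 h the 3 probe sets of Gorai.002G248000.1 lie between -3.23 and -2.25 while that of Gorai.009G416300.1 is at 0.66.

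From 6 to 48 h the log2 feeding difference moved by -5.89 (standard error 1.20) for the bright, -4.95 (1.01) for the middle and -6.65 (0.765) for the dim probe set of Gorai.002G248000.1, and by -2.26 (0.623) for Gorai.009G416300.1. Both treatments took part in the move of Gorai.002G248000.1. For its bright probe set, 48 h minus 6 h was -3.30 in CBW-damaged leaves and 2.59 in control leaves (standard error 0.846 for both). For Gorai.009G416300.1 it was -1.30 in CBW-damaged leaves and 0.97 in control leaves (standard error 0.440 for both).

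The order of the 8 groups differed between the genes. For Gorai.009G416300.1, CBW-damaged leaves at 12 h had the highest geometric mean intensity (889), followed by CBW-damaged leaves at 6 h (601), control leaves at 12 h (564), CBW-damaged leaves at 24 h (396) and at 48 h (244.5), and control leaves at 48 h (154.5), 24 h (114) and 6 h (79.1). Neighbours in this order overlapped except for CBW-damaged leaves at 12 h over those at 6 h, and at 24 h over those at 48 h.

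For the bright probe set of Gorai.002G248000.1 the order ran through CBW-damaged leaves at 6 h (3102), at 12 h (2261), control leaves at 48 h (2187), CBW-damaged leaves at 24 h (1580.0), control leaves at 12 h (1125), 24 h (940.1) and 6 h (364), and CBW-damaged leaves at 48 h (314). Every pair of neighbours overlapped. The middle probe set had the same order but for the 2 lowest groups, which changed places. Control leaves at 48 h stood above 5 of the other groups for the bright probe set and above 2 for Gorai.009G416300.1.

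Time steps were tested where the arrays had not entered the ratio that put a probe set on the study's list, with limma over all probe sets and Benjamini-Hochberg adjustment. In control leaves the time of that ratio was taken per gene, and in CBW-damaged leaves every step that touches 6 or 48 h was kept as a description for both genes. This left 9 steps for the 3 probe sets with values at all times, of which 1 was called at an adjusted p of 0.05 or less, the fall of Gorai.009G416300.1 in control leaves between 12 and 24 h.

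In CBW-damaged leaves this step of Gorai.009G416300.1 was -1.17 on the log2 scale (standard error 0.440, 95% interval -2.09 to -0.24, adjusted p = 0.0594 from limma). The CBW arrays at 24 h lay below those at 12 h, as for 22.9% of all probe sets, but the step did not pass the threshold. It passed with the spread estimated from the CBW arrays alone (adjusted p = 0.0018 from limma) and without CBW replicate 1 of 24 h (-1.46, adjusted p = 0.0382 from limma). It did not pass with any other single array left out (adjusted p = 0.103 to 0.176 from limma). Over the probe sets tested, 12.9% were called lower and 12.9% higher in this step.

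In control leaves the probe set fell by 2.31 on the log2 scale between 12 and 24 h (limma, adjusted p = 0.000401, standard error 0.440), or 4.95-fold. All 3 control arrays at 24 h lay below all 3 at 12 h, as for 20.3% of all probe sets, and the fall held without any 1 array (1.84 to 2.69, largest adjusted p = 0.00355 from limma). Of all 13837 probe sets tested in this step, 18.4% were called lower and 20.2% higher. The step of CBW-damaged leaves minus that of control leaves was 1.14 (standard error 0.623).

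From 24 to 48 h, Gorai.009G416300.1 moved by 0.44 in control leaves (95% interval -0.48 to 1.36, adjusted p = 0.677 from limma). Few probe sets of any kind were called in this step, 0.370% in both directions. From 6 to 12 h its level was 0.56 higher on the log2 scale in CBW-damaged leaves and 2.83 higher in control leaves (standard error 0.440 for both). The step of control leaves, 7.13-fold, had every array at 12 h above every array at 6 h, as for 21.9% of all probe sets. Both steps used 6 h arrays of the study's ratio and are given without a test.

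No tested step of Gorai.002G248000.1 was called. In control leaves between 6 and 12 h, the bright probe set moved by 1.63 (95% interval -0.15 to 3.40, adjusted p = 0.131 from limma) and the middle one by 1.29 (-0.20 to 2.77, adjusted p = 0.156 from limma). Of all probe sets 19.9% were called higher and 23.2% lower in this step. Both results depended on single control arrays at 6 h. Without replicate 1 the steps were 2.66 and 2.04, with adjusted p = 0.0133 and 0.0296 from limma. Without replicate 2 they were 0.78 and 0.74, with adjusted p = 0.5 and 0.468 from limma.

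Between 12 and 24 h, the bright probe set moved by -0.52 in CBW-damaged leaves (95% interval -2.29 to 1.26, adjusted p = 0.717 from limma) and by -0.26 in control leaves (-2.03 to 1.51, adjusted p = 0.840 from limma). The middle probe set moved by -0.60 in CBW-damaged leaves (-2.09 to 0.89, adjusted p = 0.601 from limma) and by -0.09 in control leaves (-1.58 to 1.40, adjusted p = 0.936 from limma). The step of Gorai.009G416300.1 in CBW-damaged leaves, -1.17, lay inside the intervals of both probe sets, and its step in control leaves, -2.31, lay outside them. The 95% interval of that control step, -3.23 to -1.38, overlapped the intervals of both probe sets. The difference between the genes in these steps was not tested.

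The steps of CBW-damaged leaves that touch 6 or 48 h are given without a test. From 6 to 12 h the bright probe set moved by -0.46 (standard error 0.846) and the middle one by -0.37 (0.710), with overlapping arrays. From 24 to 48 h the log2 step was -0.70 (standard error 0.440) for Gorai.009G416300.1, -2.33 (0.846) for the bright and -1.66 (0.710) for the middle probe set of Gorai.002G248000.1. In 3 of 3 every array at 48 h lay below every array at 24 h, a state shared by 14.1% of all probe sets, and the study's ratio at 48 h used these arrays for Gorai.002G248000.1.

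The spread between replicate arrays was large for PAL. The residual SD was 1.11 on the log2 scale for the bright, 0.93 for the middle and 0.75 for the dim probe set of Gorai.002G248000.1 and 0.58 for that of Gorai.009G416300.1, against a median of 0.21 over probe sets with values on all arrays. That of the bright probe set was larger than in 99.4% of them. The spread was uneven: its SD was 0.06 among CBW arrays at 6 h and 1.91 among control arrays at 6 h.

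The probe sets of Gorai.002G248000.1 moved together from array to array, within groups as well as between them. Log2 intensities of the bright and the middle probe set correlated at r = 0.989 over the 24 arrays (Spearman's rho 0.991), at 0.986 without the 2 arrays farthest from the median, and at 0.980 after subtracting each group's mean. The dim probe set correlated with the bright one at 0.976 over its 12 arrays. The arrays that stood apart in one probe set thus stood apart in the others.

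Gorai.009G416300.1 followed them loosely. Its correlation with the bright probe set was 0.484 over the 24 arrays (rho 0.517), 0.406 without the 2 farthest arrays and 0.226 within groups. These correlations compare probe sets hybridised on the same arrays, and those of Gorai.002G248000.1 may share target transcripts, so they are given as a description.

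**Figure D3:**
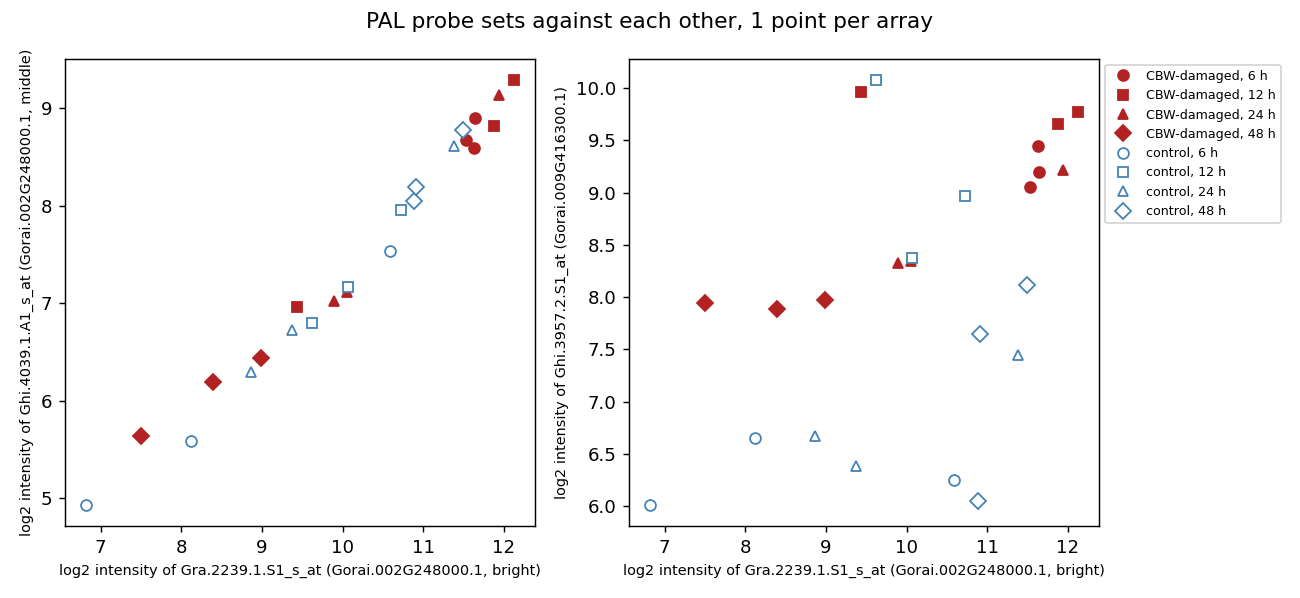
Log2 intensity of the middle probe set of Gorai.002G248000.1 (left) and of the probe set of Gorai.009G416300.1 (right) against that of the bright probe set of Gorai.002G248000.1, 1 point per array (24 arrays; red filled, CBW-damaged; blue open, control; shapes give the time). The 2 probe sets of Gorai.002G248000.1 fall along a line (r = 0.989), whereas Gorai.009G416300.1 scatters (r = 0.484). The control arrays at 48 h lie to the right of the CBW arrays at 48 h, and their values of Gorai.009G416300.1 overlap.

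The probe sets most like the members over the 24 arrays differed between the genes. For the bright probe set of Gorai.002G248000.1 they were 2 matched to Gorai.003G052100.1 (r = 0.967 and 0.965) and 1 matched to Gorai.004G105500.1 (0.940), which are on the study's phenylpropanoid list, with 1 each for Gorai.011G161200.1 (0.952) and Gorai.011G161300.1 (0.943) of its flavonoid list. For the middle probe set they were the same pair for Gorai.003G052100.1 (0.953 and 0.952), those of Gorai.005G035100.1 (0.936) and Gorai.013G023400.1 (0.927) of the flavonoid list, and 1 (0.931) that is on no list used here.

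All of these correlations were 0.877 or more within groups, so that the likeness includes the scatter of replicate arrays. For the bright probe set and the first of Gorai.003G052100.1 the within-group value was 0.969. That probe set of Gorai.003G052100.1 had log2 feeding differences of 3.38, 1.05, 1.30 and -2.41 at 6, 12, 24 and 48 h (standard error 0.809), each less than 1 standard error from that of the bright PAL probe set.

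The 5 probe sets most similar to Gorai.009G416300.1 had r between 0.918 and 0.937. The one at 0.918 is matched to Gorai.011G029700.1, which the study lists among ERF genes, a family of transcription factors with an AP2 DNA-binding domain. The other 4 have no name in the sources used here. Their within-group correlations were lower, between 0.429 and 0.779 over the 5, so that more of this likeness lay between groups.

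The study's phenylpropanoid list holds 41 probe sets beside the 4 members, and its flavonoid list holds 36. Both were chosen by the study on these arrays and do not serve as independent evidence. Over the 24 arrays, the flavonoid list had a median r of 0.86 with the bright probe set of Gorai.002G248000.1 (29 probe sets with values on all arrays) and 0.32 with Gorai.009G416300.1. The phenylpropanoid list, with 40 such probe sets, had medians of 0.22 and 0.57. The medians over all 13338 other probe sets were -0.07 and -0.10. A correlation above 0.8 with the bright probe set was found for 16 flavonoid, 10 phenylpropanoid and 48 of all probe sets, and with Gorai.009G416300.1 for 0, 3 and 240.

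**Figure D4:**
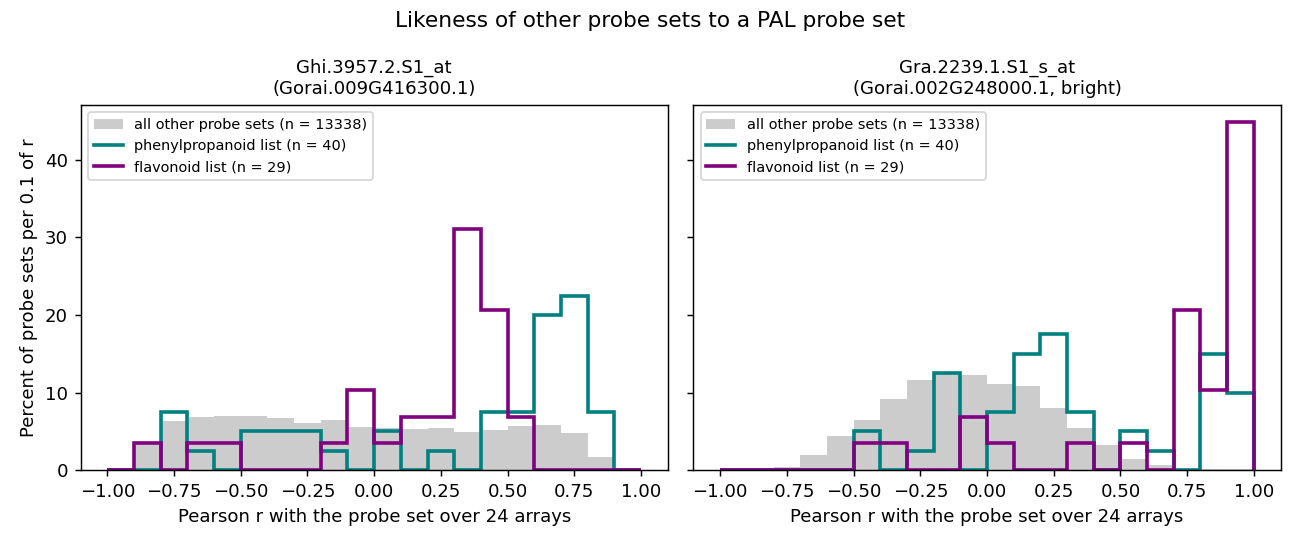
Percent of probe sets per 0.1 of Pearson's r with the probe set of Gorai.009G416300.1 (left) and with the bright probe set of Gorai.002G248000.1 (right) over 24 arrays, for all 13338 other probe sets with values on all arrays (grey), the study's phenylpropanoid list (teal, n = 40) and its flavonoid list (purple, n = 29). Most of the flavonoid list lies near the right edge for Gorai.002G248000.1 (median 0.86) and in the middle for Gorai.009G416300.1 (median 0.32).

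With feeding, most of the flavonoid list was higher at 6 h but lower at 48 h, while the phenylpropanoid list was divided at 48 h. At 6 h, 26 of 35 flavonoid probe sets were called higher and 6 lower with feeding (median log2 difference 2.01), and at 48 h 2 of 35 were higher and 28 lower (median -2.22). The count at 6 h was 12 without control replicate 2. At 12 h 1 of 31 was higher and 4 lower, and at 24 h 2 of 33 were higher and 5 lower. Over all probe sets 26.1% were called higher and 36.5% lower at 6 h, with a median difference of -0.13, and 22.4% higher and 22.6% lower at 48 h, with a median of 0.00.

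Of the phenylpropanoid list, 28 of 40 were higher and 9 lower at 6 h (median 1.83), 13 of 41 higher and 12 lower at 12 h (0.27), 18 higher and 11 lower at 24 h (0.75), and 15 higher and 21 lower at 48 h (-0.78). The count of 13 was 8 without control replicate 2 of 12 h. At 12 h 19.9% of all probe sets were called higher and 24.7% lower, and at 24 h 29.3% lower and 49.3% in both directions together.

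Of 22 pathway steps searched by name, 6 were found. The names come from a table of which only rows with a ratio at 48 h were held here, ordered from the largest ratio down, so named enzymes lean towards rises at 48 h. The probe set annotated as 4-coumarate-CoA ligase, which activates cinnamic acids with coenzyme A, had log2 feeding differences of 1.41, 1.19, 1.70 and 1.37 at 6, 12, 24 and 48 h (standard error 0.288). That annotated as hydroxycinnamoyl transferase, an enzyme on the way to monolignols, had 2.22, 1.28, 2.46 and 1.51 (standard error 0.273). For either enzyme the treatments were apart at all 4 times.

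Among enzymes that methylate or hydroxylate lignin precursors, the brightest of 2 probe sets annotated as caffeoyl-CoA O-methyltransferase had 2.71, 0.79, 2.80 and 1.71 (standard error 0.289), with overlap at 12 h. The brightest of 3 annotated as caffeic acid O-methyltransferase had 1.67, 2.22, 2.46 and 2.21 (standard error 0.349), and the brightest of 4 annotated as ferulate 5-hydroxylase had 3.30, 1.62, 3.03 and 2.38 (standard error 0.247). These 5 probe sets were called higher at all 4 times, beside 26.1% of all probe sets at 6 h, 19.9% at 12 h and 22.4% at 48 h. At 24 h, 49.3% of all probe sets were called in either direction, a share that includes the 29.3% called lower. Because ratios at 48 h on these arrays decided which enzymes could be named, these calls are a description.

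The other probe sets of these enzymes did not all follow. Of the 3 for caffeic acid O-methyltransferase, 2 were called higher at 6 and 12 h and 3 at 24 and 48 h. Of the 4 for ferulate 5-hydroxylase, 3 were called higher at 6 h, 3 higher and 1 lower at 12 h, and 4 higher at 24 and 48 h. The one that was lower at 12 h, matched to Gorai.007G151200.1, stood at -1.33 on the log2 scale there (limma, adjusted p = 0.00301). Both probe sets of caffeoyl-CoA O-methyltransferase were called higher at all 4 times.

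At 48 h all 11 probe sets of these 5 named enzymes were called higher in CBW-damaged leaves, beside 22.4% of all probe sets. Their ratios at 48 h decided which could be named, so this count and its contrast with the lower intensities of Gorai.002G248000.1 are a description. The brightest probe set of caffeoyl-CoA O-methyltransferase had its smallest feeding difference at 12 h. In control leaves it had 395 to 615 at 6 h, 924 to 1921 at 12 h and 279 to 553 at 24 h.

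The probe set annotated as salicylate methyltransferase, which makes the volatile methyl salicylate, is listed by the study under jasmonic acid biosynthesis. It had feeding differences of 3.36, 4.70, 2.34 and 2.53 (standard error 0.540), with the arrays of the treatments apart at each time. It had 9541 to 11216 in CBW-damaged leaves at 12 h, against 191 to 1188 in control leaves. Of the study's 6 probe sets for salicylic acid signaling, 4 had values at 6 h, with 0 called higher and 1 lower. Of all 6, 0 were higher and 3 lower at 12 h, 1 higher and 3 lower at 24 h, and 3 higher and 3 lower at 48 h, beside the shares over all probe sets given for the other lists. The lower count at 6 h was 2 without CBW replicate 2 and 0 without CBW replicate 1, CBW replicate 3 or control replicate 1. The higher count was 2 at 6 h without CBW replicate 3, 1 at 6 h without control replicate 2, and 0 at 24 h without control replicate 1 or 3. The median correlation of this list with the bright probe set of Gorai.002G248000.1 was -0.02 and with Gorai.009G416300.1 0.20, over the 4 probe sets with values on all arrays.

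**Figure D5:**
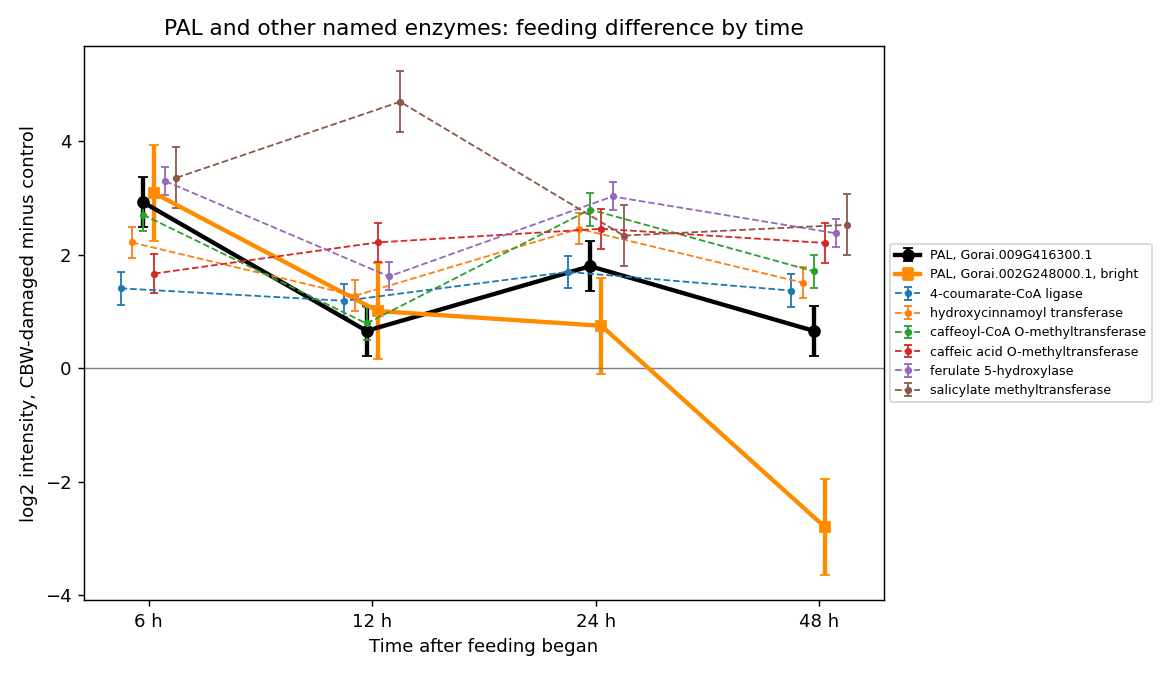
Difference in log2 intensity between CBW-damaged and control leaves at 6, 12, 24 and 48 h for a PAL probe set of each gene (thick lines) and for the brightest probe set of each of 6 named enzymes (dashed lines); bars are ± 1 standard error from the linear model. At 48 h the named enzymes lie between 1.37 and 2.53, Gorai.009G416300.1 at 0.66 and the bright probe set of Gorai.002G248000.1 at -2.80. Enzymes could be named only among probe sets with a ratio at 48 h, from the largest down.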

How the data were processed

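The deposited table holds signal intensities that the authors computed with MAS5 on a linear scale (version and scaling target not given in the sources used here), for whole-leaf RNA on 1-colour Affymetrix Cotton GeneChips. Within a time a probe set was either complete (6 arrays) or empty, for a reason not given in the sources used here. The label protocol names Cy3 and Cy5 pairs, although this platform is read in 1 colour and each sample has its own values. Here intensities were taken to log2 without a filter or pseudocount. A linear model with 1 mean per treatment and time was fitted over all 24 arrays, with p-values adjusted by Benjamini-Hochberg over all probe sets tested in each comparison (limma 3.58.1, R 4.3.3), and was tested on simulated data. No array test is named in the methods. Replicates are labelled biological, each from a separate pool of plants. With 3 arrays against 3, an exact permutation test cannot give a two-sided p below 0.1, so overlap of arrays is described instead. The number of arrays limits the precision.

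The members and lists were chosen with earlier results of these data known. Named were all members, the 5 probe sets most correlated with each member that had values on all arrays, and for each named enzyme the probe set with the highest mean. Alternatives were quantile normalization, centring on array medians, a floor at the 20th percentile, only probe sets with values at all times, an intensity trend with robust eBayes, fewer arrays in the fit, the replicate number as a block, each array left out, and rank correlation. Sequences were not analysed here.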

Additional observations from a re-analysis of the deposited data

Results flagged for a closer look

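The 3 probe sets of Gorai.002G248000.1 had every CBW array above every control array at 6 h, as for 28.0% of all probe sets. At 48 h they had every CBW array below, as for 31.3% of all probe sets. The share with both states was not counted. Their feeding difference at 48 h minus that at 6 h was -5.89 on the log2 scale for the bright probe set. It was -4.95 for the middle and -6.65 for the dim one, whose size rests on the dimmest part of the scale. The opposite direction at the 2 times was not tested, because the ratio at 48 h chose the probe sets, and they may measure the same transcripts.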

How the results depend on the processing

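Quantile normalization and centring of arrays kept the direction of every feeding difference and tested step of the members. For Gorai.002G248000.1, the floor at the 20th percentile moved the feeding difference of the middle probe set at 6 h to 1.65 and those of the dim probe set at 6 and 48 h to 0.00. It also took the step of the dim probe set in CBW-damaged leaves at 48 h relative to 6 h to 0.06, against -4.03 without the floor. In control leaves it moved the steps of the middle probe set from 1.29 to 0.26 between 6 and 12 h (limma, adjusted p = 0.780) and from -0.09 to 0.14 between 12 and 24 h, neither of them called in either fit.

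The step of Gorai.009G416300.1 in CBW-damaged leaves between 12 and 24 h was -1.17 to -1.11 in the fits to all or only the CBW arrays. It passed the threshold with the floor (limma, adjusted p = 0.0178), in the fit of CBW arrays only (0.0018) and with the replicate number as a block (0.0400). In the other fits to all arrays it missed the threshold (limma, adjusted p = 0.058 to 0.0702). It was -1.46 to -1.01 with each array left out, and the feeding difference of this gene at 48 h was 0.05 to 1.08. In control leaves between 6 and 12 h, the step of Gorai.002G248000.1 was 0.78 to 2.66 for the bright and 0.74 to 2.04 for the middle probe set with each array left out. Same-numbered CBW and control arrays correlated at -0.17 to 0.52 in their deviations from group means, above 0.1 in 6 of 12 pairs. The correlations were 0.2 to 0.52 at 12 h and 0.09 to 0.49 at 24 h, but -0.06 to -0.02 at 48 h. The numbers were not taken to pair the samples in the main fit, and pairing at 12 and 24 h alone was not tested. The replicate block changed no other tested call of a member.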
